A study of Mus musculus with 9 samples.

Results

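The T cell receptor signalling machinery is described here as 38 genes, taken by name from the deposited expression table of mouse regulatory T cells (Tregs). They encode the CD3 and zeta chains, the coreceptors and costimulatory receptors beside them, the kinases and adaptors that act first, the enzymes and transducers further down, and the negative regulators of all of these. All 38 symbols were found among the 23420 rows of the table, and all 38 were among the 11357 genes whose mean over the libraries reached 10. The members were listed by function with earlier results of these data known, and the only measured value in the rule is that mean of at least 10, which removed none of them. The lowest member mean was 322, and the fewest reads behind any member in any library were 154, so no member was at or near 0.

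The libraries came from wild-type mice in 3 groups of 3, with mouse numbers given in the sample titles. The first group was Tregs from the synovium of mice with collagen-induced arthritis, an autoimmune joint disease that follows immunization with collagen. The second was Tregs from lymph nodes draining the joints of such mice, and the third was Tregs from the same nodes of control mice that had no treatment. In every group, paws or nodes were digested and the cells were sorted on YFP from a Foxp3 reporter, so all 9 libraries, controls included, carry the reporter and passed through digestion and sorting. Ages, the time after immunization and whether animals were pooled are not given in the sources used here. In sorted bulk RNA, fewer cells of a type and less RNA per cell cannot be told apart.

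As background, binding of peptide and MHC to the receptor lets the Src family kinase LCK phosphorylate the CD3 and zeta chains, which recruit ZAP70. ZAP70 then phosphorylates the adaptors LAT and LCP2, on which phospholipase C gamma, VAV1 and others assemble. The products of phospholipase C open the calcium and NFAT branch on the side of inositol phosphate and, on the side of diacylglycerol, the Ras branch through RASGRP1 and the NF-kB branch through PKC-theta, BCL10 and MALT1. Phosphatases, the kinase CSK, ubiquitin ligases, the adaptor SLA and diacylglycerol kinases hold the pathway back. Tregs need receptor signals for their suppressive function, and how strongly they respond is set in part by these brakes.

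Upstream windows are shown for 6 members that differed between synovial and node Tregs, 4 lower and 2 higher in synovium, so that the letters upstream of brakes (Ptpn6, Csk, Ptpn22), of Lck and Lat and of Nfatc3 can be read beside their values. They were chosen after their values were seen, only Ptpn6 and Ptpn22 among them differed by 2-fold or more, and the windows lie outside the annotated exons of the gene or touch them by a few bases. Each runs 5′ to 3′ on the gene's strand and holds the 200 bases before a RefSeq start site (GRCm38.p6). Capitals mark matches on either strand to any of 5 motifs searched: CCGGAAG (ETS core), TGTGGTT (RUNX), TGANTCA (AP-1), CACGTG (E-box) and GGAAAA (NFAT). Which start sites these Tregs use was not measured.
Ptpn6, chr6:124738710-124738909, minus strand: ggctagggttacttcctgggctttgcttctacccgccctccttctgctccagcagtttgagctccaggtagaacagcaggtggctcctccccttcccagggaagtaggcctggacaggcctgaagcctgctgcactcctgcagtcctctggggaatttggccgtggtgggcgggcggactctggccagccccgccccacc
Csk, chr9:57653632-57653831, minus strand: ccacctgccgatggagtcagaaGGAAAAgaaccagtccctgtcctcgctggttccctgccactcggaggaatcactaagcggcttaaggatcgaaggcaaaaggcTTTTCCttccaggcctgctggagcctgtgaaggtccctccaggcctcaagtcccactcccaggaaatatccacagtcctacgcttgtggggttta
Lck, chr4:129573642-129573841, minus strand: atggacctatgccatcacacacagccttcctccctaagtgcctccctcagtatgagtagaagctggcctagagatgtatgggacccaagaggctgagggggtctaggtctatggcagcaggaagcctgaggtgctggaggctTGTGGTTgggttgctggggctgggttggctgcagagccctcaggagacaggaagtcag
Lat, chr7:126369569-126369768, minus strand: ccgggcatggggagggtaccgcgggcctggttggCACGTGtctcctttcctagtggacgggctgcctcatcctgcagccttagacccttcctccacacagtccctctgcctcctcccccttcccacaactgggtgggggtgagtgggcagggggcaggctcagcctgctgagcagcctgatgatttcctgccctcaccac
Ptpn22, chr3:103859595-103859794, plus strand: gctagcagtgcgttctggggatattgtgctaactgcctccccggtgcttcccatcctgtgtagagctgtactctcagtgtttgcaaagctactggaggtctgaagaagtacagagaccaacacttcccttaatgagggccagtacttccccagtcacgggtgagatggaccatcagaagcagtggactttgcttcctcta
Nfatc3, chr8:106058618-106058817, plus strand: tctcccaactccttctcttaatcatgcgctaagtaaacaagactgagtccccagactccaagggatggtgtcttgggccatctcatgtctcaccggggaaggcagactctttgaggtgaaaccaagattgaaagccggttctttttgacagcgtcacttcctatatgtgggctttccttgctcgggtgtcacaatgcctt

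Among these windows, Csk holds 2 NFAT matches, Lck 1 RUNX match and Lat 1 E-box, while those of Ptpn6, Ptpn22 and Nfatc3 hold none of the letters searched. Csk, Lck, Ptpn22 and Nfatc3 each have a further RefSeq start site whose window is not shown. That of Nfatc3 holds an E-box, and those of Csk, Lck and Ptpn22 hold no match, so the matches listed depend on the windows chosen. RefSeq entries were found for 29 of the 38 members, with 43 start sites in all. Over those 43 windows, the NFAT letters were in 5 (11.63%, against 16.37% of 32851 windows of the same length genome-wide), the E-box in 3 (6.98% against 5.26%) and the RUNX letters in 2 (4.65% against 3.49%). None of the 43 held the ETS or AP-1 letters, which occur in 6.29% and 5.48% of all windows. The NFAT letters fall within many longer sequences, and a match is a description of letters, not a binding site.

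The recovered reads numbered 11300406 to 12855435 per library. Levels below are normalized read counts, that is, gene reads divided by a size factor of the library. A log2 fold change subtracts group means of log2(value + 1) and is given ± its standard error from limma. That error rests on 3 libraries per group, with a spread shared by all 9 libraries and drawn toward that of other genes. Treg markers were present throughout: Foxp3 read 413 to 538 in synovium with means of 269 and 266 in arthritic and control nodes, and Il2ra, Ctla4, Ikzf2 and Tnfrsf18 were each higher in synovium. Of the markers of other cells, Ncr1, Kdr and Csf3r were at 0 in all 9 libraries and Cd8a in the synovial ones, but others were as high as Foxp3 or higher: Zbtb46 read 537 to 607 and Kit 402 to 835 in synovium, and Cd79b had a mean of 526 in arthritic nodes. Synovial library 3 stood apart in fibroblast genes, for example Col3a1 at 339 against 14.3 and 0 in synovial libraries 1 and 2, and Sparc was called higher in synovium. Summed over the 8 fibroblast markers, synovium held 0.0193 to 0.0413% of normalized counts and arthritic nodes 0.0248 to 0.0311%. Outside synovial library 3 nearly all of it was Thy1, which T cells express. In synovial library 3 the 7 markers other than Thy1 held 0.0181% of counts, out of 0.0413% for the list. The other 7 summed to 115, 106 and 2491 normalized counts in synovium and 1.74, 13.5 and 201 in arthritic nodes, so library 3 was the highest at both sites. Dendritic markers held 0.0940 to 0.111% in synovium against 0.0389 to 0.0477% in arthritic nodes, of which most was Cd74, with Zbtb46 and Xcr1 higher as well and Clec9a at 0 in every library. The mast cell and basophil list held 0.00487 to 0.00733% against 3.97e-04 to 0.00145%, from Kit and Hdc, with Cpa3 the other way (0 to 14.6 against 16.4 to 35.8, not called) and Mcpt4 and Cma1 at 0 in every library. A list of 22 digestion and stress genes held 1.88 to 2.11% of counts in synovium and 0.624 to 0.870% in arthritic nodes, against 0.597 to 0.677% in control nodes, and 19 of the 22 were higher in synovium with none lower. The part of these markers in the results on the receptor machinery was not tested.

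Comparing synovial with node Tregs of arthritic mice asks how the machinery differs between the inflamed joint and the node that drains it. The CD3 and zeta chains of the receptor were not called on the deposited scale, though lower in synovium under quantile and total-count scaling, while the largest differences, in both directions, lay mainly among its inhibitors and in the arm from PKC-theta to MALT1. In synovium the phosphatase gene Ptpn6 was 7.07-fold lower, and Dgka, Dgkz and Prkcq were 2.72-, 2.11- and 2.61-fold lower. Sla, Malt1, Cblb, Cd2, Bcl10 and Ptpn22 were 2.95-, 2.95-, 2.67-, 2.25-, 2.22- and 2.07-fold higher. These 10 are the members called with a change of at least 2-fold, a rule that 18.9% of all genes passed.

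Of the 38 members, 20 were called at an adjusted p under 0.05 (limma, Benjamini-Hochberg over all genes tested), 10 higher and 10 lower in synovium. Over all 11357 genes the same rule called 33.8%, with 17.9% higher and 15.9% lower. Members are more highly expressed than most genes and were measured with a smaller error (median standard error 0.129 on the log2 scale, against 0.275 over all genes). Among the 5827 genes at or above the lowest member's mean, 45.3% were called. The median absolute log2 fold change of the members was 0.57, against 0.56 over all genes. The 3 synovial and the 3 arthritic node libraries did not overlap for 27 members, 13 higher and 14 lower, where 48.2% of all genes did not overlap. Against genes of like abundance the members' count of calls is therefore not read as particular to them, and the results lie in which members differed and in which direction.

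**Figure D1:**
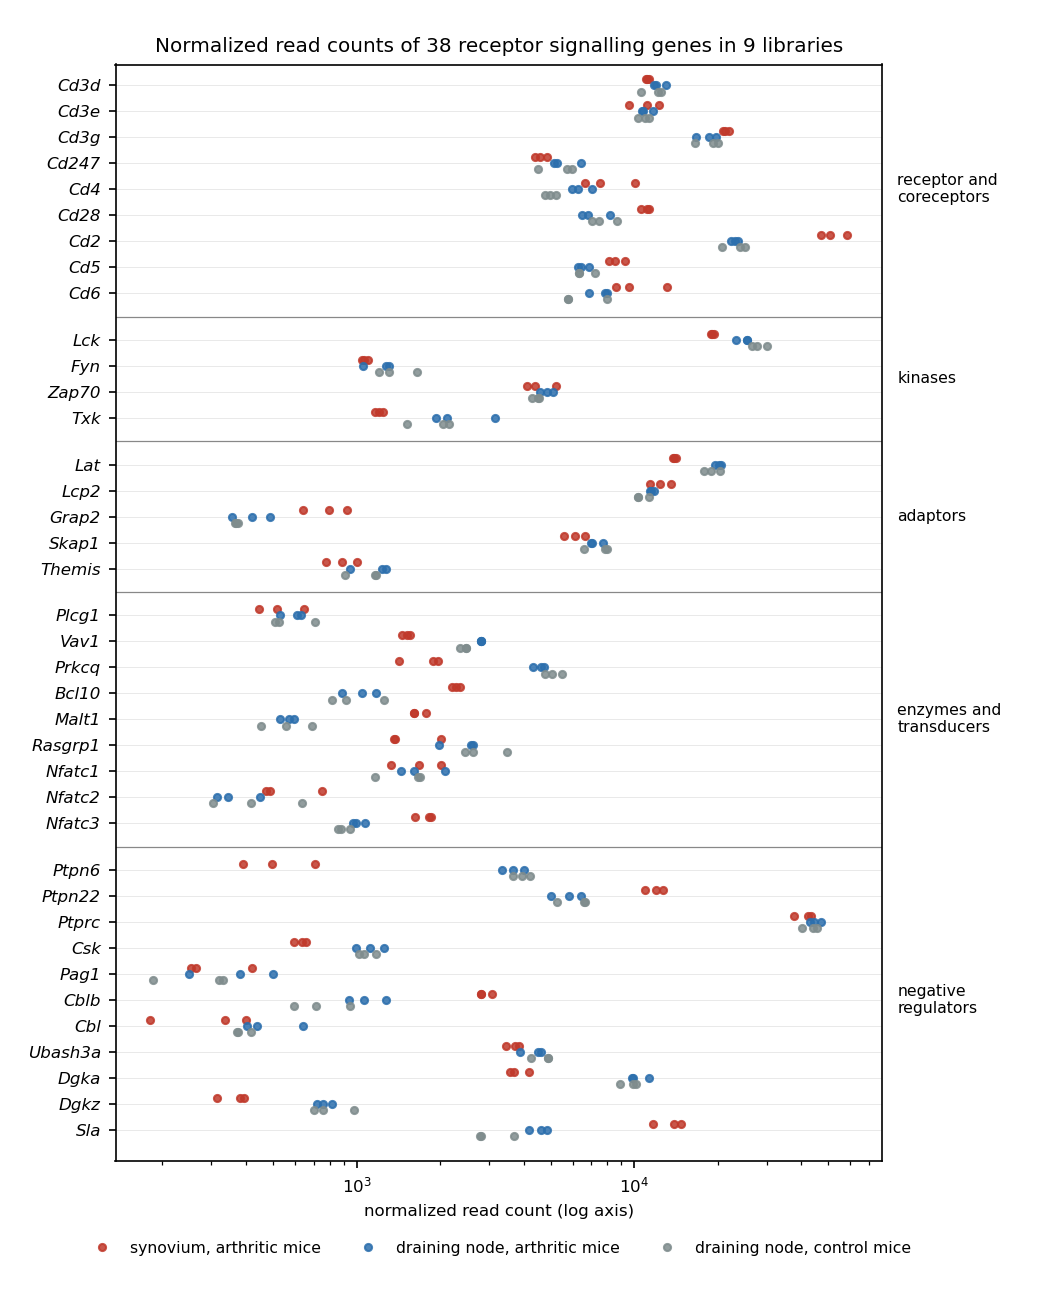
Normalized read count (log axis) of each of the 38 genes in each of the 9 libraries; 1 point is 1 library, red for synovium and blue for draining node of arthritic mice, grey for draining node of control mice, with genes grouped by role. The red points of Ptpn6 (391 to 711) lie left of all 6 node points (3345 to 4202), those of Sla and Malt1 lie right of theirs, and the 3 colours of Cd3e overlap.

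**Figure D2:**
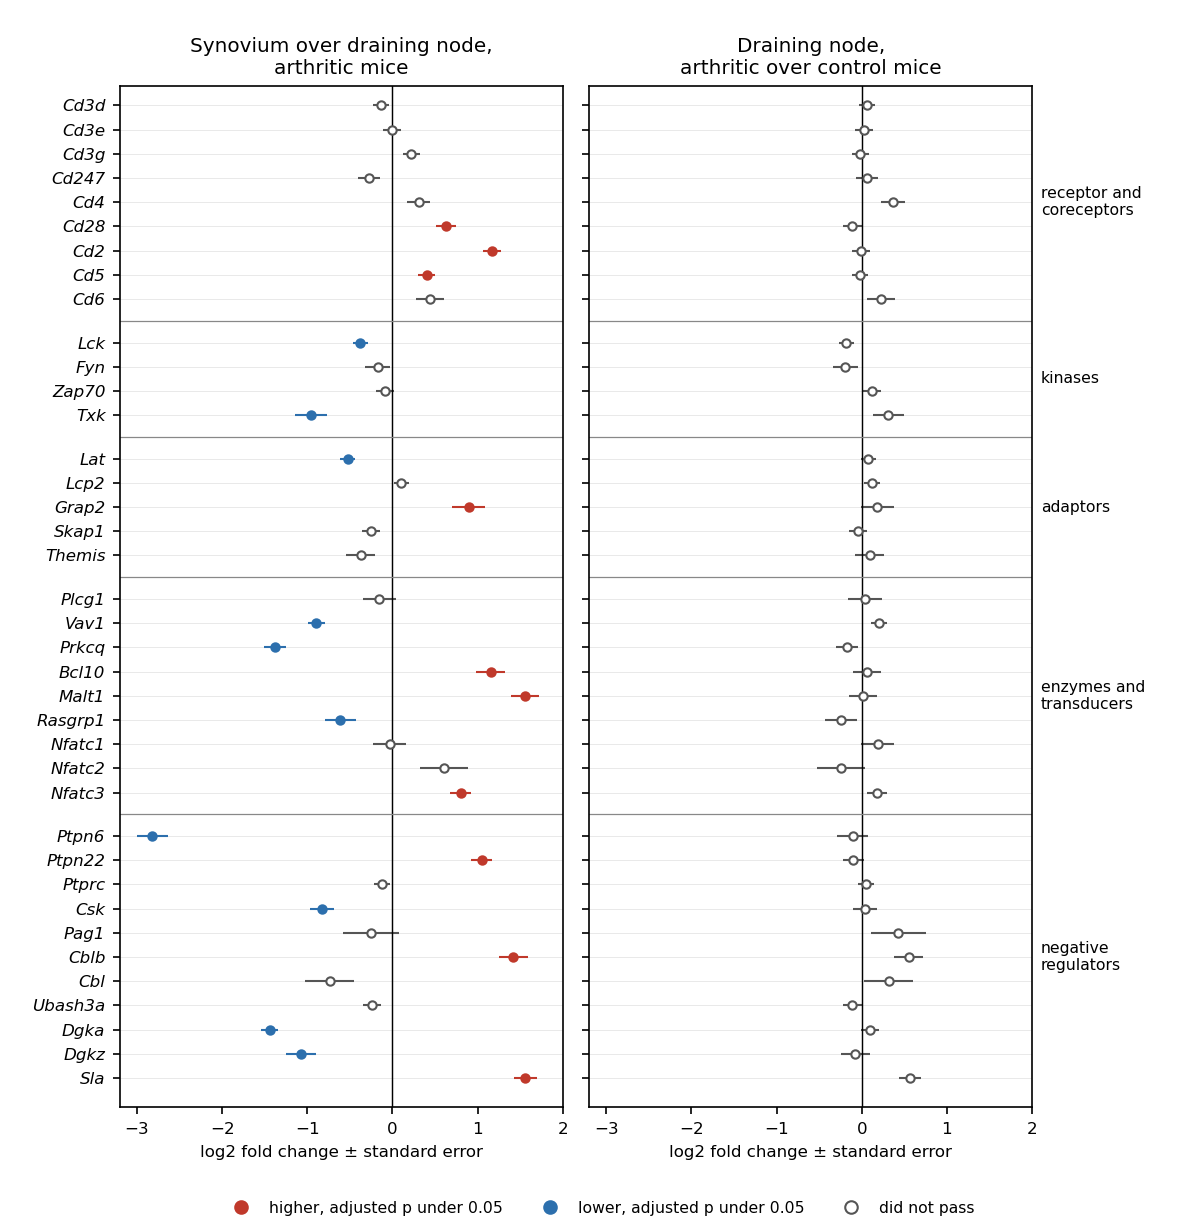
Log2 fold change with its standard error for each gene, synovium over arthritic node on the left and arthritic over control node on the right, on a common axis; filled points passed the test (red higher, blue lower) and open points did not. The left panel holds 20 filled points, from Ptpn6 at −2.82 to Sla at 1.56, and the right panel holds none.

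Among the 9 genes of the receptor complex and its coreceptors, 3 rose in synovium and none fell. The 4 signalling chains of the receptor were not called as deposited. Cd3d read 11332, 11054 and 11148 in synovium, 12983, 11795 and 12006 in arthritic nodes and 12138, 12513 and 10544 in control nodes. Cd3e, which pairs with both Cd3d and Cd3g, read 11148, 9547 and 12335 in synovium, 10730.3, 10640.2 and 11734 in arthritic nodes and 11352, 10303 and 10965 in control nodes. Cd3g read 22032, 21258 and 20855 in synovium, 19723, 16688 and 18659.9 in arthritic nodes and 19173, 20086 and 16574 in control nodes. The synovial libraries of Cd3d all lay below and those of Cd3g all above those of arthritic nodes, while those of Cd3e overlapped with both node groups. Cd247, which encodes the zeta chain, read 4408, 4854 and 4572 in synovium, 5157, 6452 and 5256 in arthritic nodes and 5986, 5734 and 4501 in control nodes. Log2 fold changes of the 4 chains ran from −0.28 (Cd247, adjusted p = 0.113) to 0.22 (Cd3g, adjusted p = 0.109), but quantile scaling put all 4 lower in synovium (−0.65 to −0.33, all 4 called) and total-count scaling did so too (−0.59 to −0.09, 3 called). With library weights Cd3g was called higher (0.24, adjusted p = 0.0452) and Cd247 lower (−0.31, adjusted p = 0.0415). These scalings also moved the median log2 fold change of all genes, from 0.00 to −0.12 and −0.31, and the median of the 367 genes at least as abundant as Cd247 from 0.25 to −0.23 and −0.06. The Cd247 value is uncertain for a further reason. Exons of Pou2f1 on the other strand overlap 56.43% of its exon length, Pou2f1 itself read 372 to 800 in these libraries, and the strand setting of the counting is not given.

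Cd2, an adhesion and costimulatory receptor, rose the most in this group. It read 50684, 58512 and 46921 in synovium, 23614, 23140.1 and 22407 in arthritic nodes and 25098, 24011 and 20695 in control nodes, and the synovial libraries lay above all 6 of the nodes (log2 fold change 1.17 ± 0.11, adjusted p = 5.57e-06). Per kilobase of exon it was the most abundant of the 38 in every group, with a mean of 29890.4 in synovium. Cd28, the main costimulatory receptor, read 11347, 10594 and 11133 in synovium, 8190.2, 6835 and 6474 in arthritic nodes and 7036, 8687 and 7460.1 in control nodes. Its synovial values exceeded all node values as well (0.63 ± 0.11, adjusted p = 0.00106). Cd5, a receptor that tempers receptor signals, read 8509.8, 8147 and 9231 in synovium, 6420.5, 6283 and 6891 in arthritic nodes and 6324, 6314 and 7206 in control nodes, a smaller difference but again with no overlap (0.40 ± 0.10, adjusted p = 0.00659). Under quantile scaling the calls of Cd28 (0.12) and Cd5 (−0.09) were lost, and that of Cd5 also under total-count scaling (0.09). Cd4, the coreceptor for MHC class II, and Cd6, a relative and genomic neighbour of Cd5, did not pass (0.31 ± 0.14, adjusted p = 0.107, and 0.44 ± 0.16, adjusted p = 0.0538). With the mouse number as a block Cd6 was called (adjusted p = 0.0209).

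Of the 4 kinases, 2 fell and none rose. Lck read 18855, 19097 and 19311 in synovium, 25509.7, 23343 and 25522 in arthritic nodes and 30076, 27765 and 26596 in control nodes. The 3 synovial values lay close together and below all others (−0.38 ± 0.09, adjusted p = 0.00533). Fyn, the other Src family kinase of T cells, read 1042, 1104 and 1065 in synovium, 1279, 1052 and 1305 in arthritic nodes and 1651, 1314 and 1204 in control nodes, and synovium overlapped arthritic nodes but lay below control nodes (−0.17 ± 0.15 against arthritic nodes, adjusted p = 0.4). Per kilobase of exon, Lck exceeded Fyn by more than an order of magnitude in every group (6517 against 245 in synovium and 8464 against 278 in arthritic nodes). Txk, a Tec family kinase, read 1205, 1251 and 1169.8 in synovium, 2117, 3164 and 1931 in arthritic nodes and 2050.5, 2153 and 1525 in control nodes. All of its synovial values lay below all node values, and arthritic node library 2 was the highest (−0.96 ± 0.18, adjusted p = 0.00167). Zap70 read 4112 to 5234 in synovium and 4578 to 5111 in arthritic nodes and did not pass (−0.09 ± 0.11, adjusted p = 0.567).

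Among the 5 adaptors, Grap2 rose and Lat fell. Lat, the membrane scaffold that ZAP70 phosphorylates, read 13821, 14097 and 13885 in synovium, 19505, 20218 and 20514 in arthritic nodes and 18914, 20378 and 17869 in control nodes. The synovial libraries were tightly grouped and lay below every node library (−0.53 ± 0.08, adjusted p = 4.75e-04). Grap2, whose product GADS bridges LAT to LCP2, read 799, 925 and 639 in synovium, 421, 489.7 and 355 in arthritic nodes and 373, 366 and 367 in control nodes. Here the synovial values were all above the node values, and synovial library 3 was the lowest of them (0.90 ± 0.19, adjusted p = 0.00337). Lcp2, Skap1 (an adaptor for integrin adhesion) and Themis (a regulator of receptor signalling in thymocytes) did not pass, with log2 fold changes of 0.10, −0.25 and −0.37.

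Of the 9 enzymes and transducers, 3 rose and 3 fell. In the arm that leads to NF-kB, the kinase at its head and the complex it activates differed in opposite directions. Prkcq, which encodes PKC-theta, read 1965, 1886 and 1423 in synovium, 4309, 4716 and 4608 in arthritic nodes and 5067, 5495 and 4779.5 in control nodes (−1.38 ± 0.13, adjusted p = 6.04e-06). Every synovial library lay far below the lowest node library, at 4309. Bcl10, the adaptor of the complex, read 2357, 2213 and 2274 in synovium, 1171, 1043 and 884 in arthritic nodes and 1255, 919.9 and 818 in control nodes (1.15 ± 0.17, adjusted p = 2.04e-04). Malt1, its protease and scaffold, read 1772, 1616 and 1616 in synovium, 595, 571 and 531 in arthritic nodes and 689, 451 and 557 in control nodes (1.56 ± 0.16, adjusted p = 1.84e-05). For both genes all 3 synovial libraries lay above all 6 node libraries.

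The other transducers include Vav1, a guanine nucleotide exchange factor, which read 1463, 1556 and 1520.4 in synovium, 2809.8, 2810.4 and 2816 in arthritic nodes and 2367, 2479.9 and 2479.7 in control nodes. The libraries of each group nearly coincided and the groups did not overlap (−0.89 ± 0.10, adjusted p = 2.25e-05). Rasgrp1, the exchange factor that turns diacylglycerol into Ras activation, read 2011, 1377 and 1365 in synovium, 1980.1, 2638 and 2585 in arthritic nodes and 2624, 2455 and 3479 in control nodes. Its groups overlapped, since synovial library 1 exceeded arthritic node library 1 (−0.61 ± 0.18, adjusted p = 0.0221), and its call depended on 4 libraries. The adjusted p was 0.0721 or 0.0831 if synovial library 2 or 3 was dropped and 0.0842 or 0.0789 if arthritic node library 2 or 3 was. Neither did it pass in a fit with no mean-variance trend (0.0776) or with library weights (0.0838), and the range over 22 alternatives was 0.00241 to 0.0842. Plcg1, the phospholipase, did not pass (−0.15 ± 0.20, adjusted p = 0.583).

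The 3 NFAT genes encode the calcium-responsive transcription factors at the end of the pathway, and 1 of them was called. Nfatc3 read 1619, 1827 and 1859.8 in synovium, 975, 1069 and 995 in arthritic nodes and 857, 878 and 947 in control nodes, with no overlap between synovium and nodes (0.80 ± 0.12, adjusted p = 3.04e-04). Nfatc1 read 2009, 1335 and 1683 in synovium, 1443, 2089 and 1606 in arthritic nodes and 1694, 1168 and 1663 in control nodes, and its groups overlapped (−0.03 ± 0.20, adjusted p = 0.917). Nfatc2 read 471, 486 and 751 in synovium, 315, 345 and 448 in arthritic nodes and 418, 303 and 634 in control nodes; its synovial values lay above those of arthritic nodes and overlapped those of control nodes (0.60 ± 0.28, adjusted p = 0.12, and 0.0375 with the mouse number as a block). Per kilobase of exon the order in synovium was Nfatc1 (224), Nfatc3 (151) and Nfatc2 (53.8), the same as in arthritic nodes (229, 86.4 and 34.9).

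Among the 11 negative regulators, 3 rose and 4 fell in synovium. Ptpn6 (chr6:124720707-124738714 in GRCm38), a tyrosine phosphatase that acts on receptor-proximal kinases, showed the largest difference of all 38 members. It read 711, 498 and 391 in synovium, 3345, 4001 and 3669 in arthritic nodes and 4202, 3663 and 3953 in control nodes. Even the highest synovial library, at 711, was far below the lowest node library, at 3345 (−2.82 ± 0.18, adjusted p = 2.75e-07). B cells and myeloid cells also express Ptpn6. The B and plasma cell list held 0.00215 to 0.00330% of counts in synovium and 0.00390 to 0.00671% in arthritic nodes, with Cd79b lower in synovium, and the macrophage and monocyte list held 5.78e-04 to 0.00219% and 5.57e-04 to 0.00496%, with Cd14 called higher in synovium. Lyz2 (means of 20.8 in synovium and 169 in arthritic nodes) and C1qb (1.47 and 50.9) were not called. Against control nodes Lyz2 was called lower. By library Lyz2 read 14.3, 48.1 and 0 in synovium, 190, 8.66 and 307 in arthritic nodes and 228, 56.0 and 315 in control nodes. Whether other cells had a part in the Ptpn6 difference was not tested. An antisense transcript overlaps 6.96% of the exon length of Ptpn6.

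The diacylglycerol kinases, which remove the messenger of the Ras and PKC-theta arms, both fell. Dgka read 4173, 3577 and 3681 in synovium, 9843, 11349 and 9865 in arthritic nodes and 9908, 8919 and 10149.7 in control nodes (−1.44 ± 0.10, adjusted p = 6.76e-07). Dgkz read 393, 314 and 381 in synovium, 719, 814 and 758 in arthritic nodes and 755, 703 and 976 in control nodes (−1.08 ± 0.17, adjusted p = 5.01e-04). In neither gene did a synovial library reach the lowest node library. Csk, the kinase that places the inhibitory phosphate on LCK, read 635, 595 and 657 in synovium, 1120.1, 1255 and 993 in arthritic nodes and 1176, 1023 and 1064 in control nodes, also without overlap (−0.83 ± 0.14, adjusted p = 6.33e-04). Pag1, which anchors CSK at the membrane, was spread widely within each group (252 to 419 in synovium, 249 to 499 in arthritic nodes) and did not pass (−0.25 ± 0.32, adjusted p = 0.587).

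The inhibitors that rose were of other kinds. Sla, a Src-like adaptor that promotes turnover of the receptor complex, read 14798, 11709 and 13878 in synovium, 4607, 4836 and 4192 in arthritic nodes and 3694, 2798 and 2787 in control nodes (1.56 ± 0.13, adjusted p = 2.66e-06). All synovial libraries lay above all arthritic node libraries, and these above all control node libraries. Cblb, a ubiquitin ligase that makes activation depend on costimulation, read 3073, 2816 and 2818 in synovium, 1066, 1272 and 939 in arthritic nodes and 596, 949.7 and 715 in control nodes (1.42 ± 0.17, adjusted p = 5.66e-05). Its paralog Cbl read 336, 181 and 399 in synovium, 403, 437 and 639 in arthritic nodes and 370.4, 376 and 415 in control nodes and did not pass (−0.74 ± 0.29, adjusted p = 0.0681, and 0.0464 with the mouse number as a block). Cblb thus lay above every node library in synovium, while Cbl, lowest in synovial library 2, lay below those of arthritic nodes. Ptpn22, a phosphatase of LCK and ZAP70, read 12004, 12694 and 10942 in synovium, 6426, 5009 and 5831 in arthritic nodes and 6592, 6632 and 5259.7 in control nodes and was higher in every synovial library than in any node library (1.05 ± 0.12, adjusted p = 4.30e-05). Ptprc, which encodes CD45 and both activates and restrains Src family kinases, and Ubash3a, a phosphatase-like regulator of ZAP70, did not pass (−0.13 and −0.24).

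**Figure D3:**
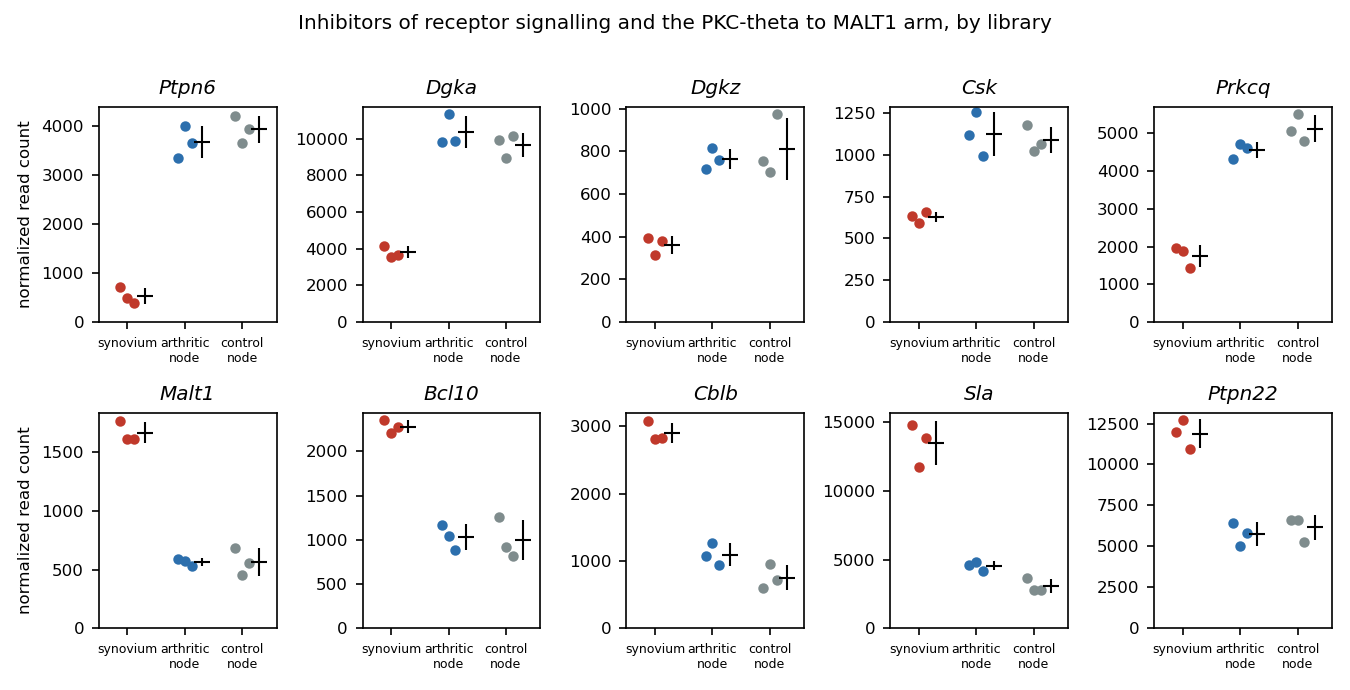
Normalized read counts (linear axes from 0, a scale per gene) of 7 negative regulators and of Prkcq, Malt1 and Bcl10; points are libraries, the crosses beside them the group mean ± SD of 3. In the first row (Ptpn6, Dgka, Dgkz, Csk, Prkcq) the synovial points lie below all node points, and in the second (Malt1, Bcl10, Cblb, Sla, Ptpn22) above them.

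Set in order per kilobase of exon, a scale that allows genes to be compared, the inhibitors changed places between sites. In arthritic nodes the mean values ran from Ptprc (2447) through Dgka (2174), Ptpn6 (1310.3), Ptpn22 (849), Sla (495), Ubash3a (387), Csk (300.4), Dgkz (122) and Cblb (104) to Cbl (39.9) and Pag1 (39.3). In synovium Ptprc (2242) was followed by Ptpn22 (1753), Sla (1465), Dgka (800.1), Ubash3a (327) and Cblb (277), and Ptpn6 came only then (190.3), ahead of Csk (168), Dgkz (57.8), Pag1 (32.6) and Cbl (24.7). Neighbours whose libraries overlapped, so that their order is not fixed, were Ptpn6 and Csk in synovium, Ptprc and Dgka and also Dgkz and Cblb in arthritic nodes, and Cbl and Pag1 at both sites. Exon lengths are those of the GENCODE vM21 annotation, which may differ from the one used for counting.

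Ratios within a library do not depend on its size factor, and are given as descriptions of how pairs of genes moved against each other, with no test. Malt1 over Prkcq was 0.857 to 1.14 in synovial libraries and 0.0821 to 0.138 in the 6 node libraries. Bcl10 over Prkcq was 1.17 to 1.60 against 0.167 to 0.272, and Cblb over Cbl 7.06 to 15.6 against 1.47 to 2.91. These 3 ratios separated synovium from nodes by a wide margin. Those to Prkcq pair genes called in opposite directions, so their separation follows from those calls and adds no support to them. Ratios to Prkcq and to Cd3e lie outside the sets of paralogs for which ratios were planned. Nfatc3 over Nfatc1 was 0.806 to 1.37 against 0.506 to 0.752, a narrower gap. Dgkz over Dgka (0.0877 to 0.103 against 0.0717 to 0.0962), Nfatc2 over Nfatc1 (0.234 to 0.446 against 0.165 to 0.381) and the ratios of Cd247, Cd3d and Cd3g to Cd3e overlapped, while Fyn over Lck (0.0552 to 0.0578 against 0.0451 to 0.0549) was separated only narrowly. Among the receptor chains themselves, Cd3d over Cd3g was 0.514 to 0.535 in synovium against 0.623 to 0.707 in nodes and Cd247 over Cd3g 0.200 to 0.228 against 0.261 to 0.387, both without overlap, while Cd247 over Cd3d overlapped (0.389 to 0.439 against 0.397 to 0.547). These 3 pairs were added after their values were seen. Quantile scaling, which gives all libraries the same distribution of values, changes such ratios.

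**Figure D4:**
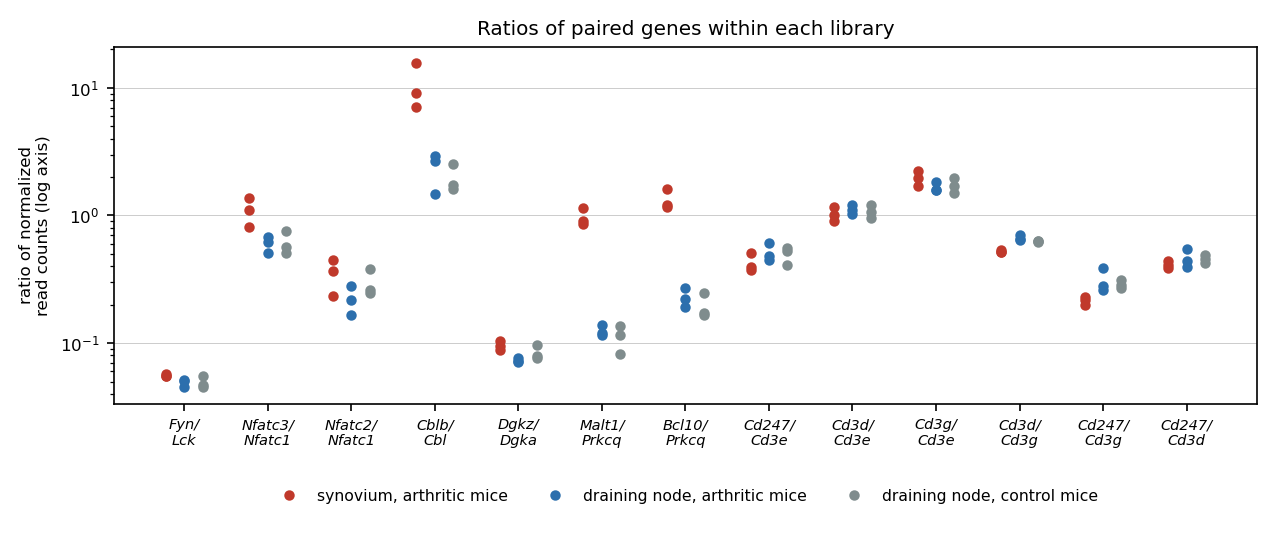
Ratio of the normalized read counts of gene pairs in each library (log axis), red for synovium, blue for arthritic and grey for control nodes. Malt1 over Prkcq, Bcl10 over Prkcq and Cblb over Cbl stand farthest apart in the synovial libraries, and of the 6 ratios among the receptor chains those of Cd3d and Cd247 to Cd3g do not overlap; a ratio compares libraries, not the levels of its genes.

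Some calls among the members depended on how libraries were scaled. Of the 20, 17 (8 higher, 9 lower) were called in the same direction under each of the 22 alternatives tried, and the exceptions were Cd28, Cd5 and Rasgrp1. With quantile scaling the split was 8 higher and 20 lower (28.6% of the calls higher), and with total-count scaling 9 higher and 20 lower (31.0%), against 10 and 10 (50%) as deposited. All genes tilted the same way: 15.1% higher and 20.6% lower with quantile scaling, 12.1% and 29.3% with total-count scaling. Without synovial library 3, the one with fibroblast genes, it was 10 and 10, with Rasgrp1 lost and Cbl gained. In the authors' deposited table, 21 members passed, 11 higher and 10 lower, where 31.2% of 13116 genes passed. These were the 20 members above and Cd6, at 0.44 in that table.

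Node Tregs of arthritic and control mice were compared to see whether disease alters the machinery outside the joint. None of the 38 members passed (0 of 38, limma), where 0.343% of all genes did, 39 in number. An unadjusted p under 0.05 was reached by 3 members, and by 1031 of the 11357 genes. edgeR called 0 members and 0.326% of all genes, with 4 members and 939 genes at an unadjusted p under 0.05, and DESeq2 called 1 member and 1.53% of all genes (173 of 11328). The members' median absolute log2 fold change was 0.11, against 0.22 over all genes, and their range was −0.24 to 0.57. The libraries of the 2 groups did not overlap for 8 members (Cd4, Zap70, Lcp2, Vav1, Nfatc3 and Sla higher, Lck and Prkcq lower in arthritic mice), where 14.9% of all genes did not overlap. A p that misses the threshold does not show equal levels.

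The 3 members with an unadjusted p under 0.05 were Sla, Cblb and Cd4. Sla stood at 4192 to 4836 in arthritic and 2787 to 3694 in control nodes, all higher (0.57 ± 0.13, adjusted p = 0.132). It is the member that DESeq2 called (0.55, adjusted p = 0.0101, in a range of 0.0101 to 0.548 over the alternatives). Cblb stood at 939 to 1272 and 596 to 949.7, with control node library 2 inside the arthritic range (0.55 ± 0.17, adjusted p = 0.324). Cd4 stood at 5987 to 7065 and 4758 to 5236, without overlap (0.37 ± 0.14, adjusted p = 0.449). The genes with the largest differences by tissue were close together here, with Ptpn6 at −0.10 ± 0.18, Dgka at 0.10 ± 0.10, Malt1 at 0.02 ± 0.16 and Prkcq at −0.17 ± 0.13. The signalling chains lay between −0.02 (Cd3g) and 0.07 (Cd3d), and kept within −0.02 and 0.07 under quantile and total-count scaling.

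Synovial Tregs were also set against node Tregs of control mice. This comparison shares the synovial libraries with the first and the control libraries with the second, and its fold changes are the sums of theirs, so it is not a separate test of the same genes. It called 24 of 38 members, 12 higher and 12 lower, where 40.1% of all genes were called (21.6% higher, 18.5% lower). All 20 members called against arthritic nodes were called here. Cd4 (0.31 against arthritic nodes, 0.67 against control nodes) and Cd6 (0.44 and 0.67) passed only against control nodes, as did Ubash3a (−0.24 and −0.35) and Skap1 (−0.25 and −0.29); the differences between the paired values are those of the node comparison, in which none passed. The calls of Cd4 and Cd6 were lost under quantile scaling (0.20 and 0.17) and total-count scaling (0.35 and 0.35), as were those of Cd28 and Cd5 against control nodes. Skap1 (adjusted p = 0.0481) was lost in 11 of 22 alternatives, and Ubash3a (adjusted p = 0.0212) in 4, among them those without synovial library 1 or control node library 2 or 3. Leaving out any library other than synovial library 2 or control node library 3 ended the call of Skap1, and leaving out control node library 1 or 2 ended that of Txk. Sla was 1.56 above arthritic and 2.13 ± 0.13 above control nodes, and Cblb 1.42 and 1.97 ± 0.17.

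Other genes of the pathway, 89 in 7 lists drawn up by function, were counted in the same way, and 86 of them were tested. The constant segments of the receptor (Trac, Trbc1, Trbc2) were not analysed here. In synovium 26 of the 86 were higher and 18 lower than in arthritic nodes, beside 17.9% and 15.9% of all genes.

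In the proximal list, 4 of 18 rose and 7 fell. Icos, a costimulatory receptor related to CD28, was at 45557 ± 7525 in synovium, 10796 ± 1557 in arthritic and 5598 ± 1094 in control nodes (mean ± SD, n = 3 each). It was higher in synovium than in arthritic nodes (2.07 ± 0.16, adjusted p = 1.40e-06) and, as the only one of the 86, also higher in arthritic than in control nodes (0.95 ± 0.16, adjusted p = 0.0262). Sh2d2a, an adaptor that binds LCK, rose by 1.36 ± 0.10 on the log2 scale.

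Of 16 calcium and calcineurin genes, 6 rose and 1 fell. Atp2b4, a plasma membrane calcium pump (2.67 ± 0.30), Orai1, the store-operated calcium channel (1.99 ± 0.46), and Itpr1, an intracellular calcium release channel (1.57 ± 0.15), rose most. The gene that fell was Itpr3, a relative of Itpr1 named after its value was seen (−1.12 ± 0.29). Among 21 Ras and MAP kinase genes, 4 rose and 3 fell. Rasgrp2, an exchange factor of the same family as Rasgrp1, fell (−1.43 ± 0.23), and Grb2, the adaptor that brings SOS to LAT, and the kinase Braf rose (1.35 ± 0.18 and 1.31 ± 0.25). Braf was uneven in synovium, at 2388 ± 1165 against 894 ± 81.2 in arthritic nodes (mean ± SD, n = 3).

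In the NF-kB arm, 3 of 9 rose and 2 fell. Tab2, a partner of the kinase TAK1, and Chuk, an IkB kinase, rose (1.06 ± 0.20 and 0.72 ± 0.22). In the PI3K arm, 2 of 7 rose and 2 fell, with the catalytic subunits in opposite directions: Pik3cd, the form typical of leukocytes, fell (−1.53 ± 0.14) and Pik3ca rose (1.19 ± 0.26), and Vav3, a relative of Vav1, fell (−0.97 ± 0.26). Of 15 further negative regulators, 7 rose and 3 fell. Rnf128, a ubiquitin ligase linked to anergy, Lag3, an inhibitory receptor, and Cish, a SOCS family protein, rose most (1.76 ± 0.46, 1.53 ± 0.37 and 1.48 ± 0.16).

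Some members lie next to each other in the genome, so they are not separate in position. Cd3g and Cd3d are 1354 bases apart on chromosome 9, with Cd3e 11400 bases beyond Cd3d, and these neighbours differed in sign between synovium and arthritic nodes (0.22, −0.13 and −0.01), although none was called. Cd5 and Cd6 lie 50338 bases apart on chromosome 19, at 0.40 and 0.44. Cd4 and Ptpn6 lie 125977 bases apart on chromosome 6, and of these Ptpn6 fell (−2.82) while Cd4 was at 0.31 and did not pass.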

How the data were processed

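RNA was sequenced from sorted Tregs in 9 libraries. Per the submitters' processing notes, reads were handled with the aligner HISAT2, the counter HTSeq and DESeq2 on mm10. The sources used here do not give versions, annotation or strand setting. The authors deposited a normalized signal per gene, which the values show to be read counts divided by a size factor: in each library 100% of the values above 0 were, within 0.01, multiples of what 1 read is worth. No column of another sample was in it. The authors' deposited table of their own comparison gives a mean signal, log2 fold changes with errors, a test score, p-values and adjusted p-values, per the file headers. A rerun of DESeq2 settled its direction as synovium over arthritic node (largest difference 1.36e-06).

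The 38 members and all lists were chosen with earlier results of these data known. limma 3.58.1 in R 4.3.3 (lmFit, eBayes with a mean-variance trend) was fitted to log2(value + 1) of 11357 genes (mean at least 10), with all 9 libraries and 3 groups, two-sided, with Benjamini-Hochberg adjustment over all genes and calls at an adjusted p under 0.05. The scripts were tested on simulated data. A value in every library was given for the 3 called members per role with the largest change, the CD3 and zeta chains, members called between nodes and sets of paralogs, and for Vav1, Rasgrp1, Csk and Ptpn22, added after their values were seen. Other pathway genes were counted by list, with up to 3 named by size of change among those called, and a few that this rule would name are not reported here. Titles give synovial and node libraries of arthritic mice the same mouse numbers, which were taken as pairs only in the fit with the mouse block. The main fit held the group alone. Residual correlations of libraries of the same number were 0.0239, 0.0540 and 0.0891. Each synovial library correlated best with the arthritic node library of its number, and the reverse was not checked. Control mice are other animals. Alternatives covered the pseudocount, the filter, the variance model, the scaling, edgeR 4.0.16 and DESeq2 1.42.0 on the recovered reads, the mouse block and each library left out; total-count scaling was added after seeing the data. Precision rests on 3 libraries per group, and reads were not counted as molecules.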

Additional observations from a re-analysis of the deposited data

How the results depend on the processing

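Under the 22 alternatives, 49 log2 fold changes were followed (all 38 members between synovium and arthritic nodes, 4 members between nodes and 7 between synovium and control nodes). Of these 1078 values, 999 kept direction and side of the threshold, and 27 lost and 37 gained a call with the same sign. The other 15 changed sign, and some of these crossed the threshold as well. Among them, under quantile scaling, Cd3g and Lcp2 gained a call and Cd5 lost its call. Quantile scaling gave 20 members lower in synovium than in arthritic nodes and 20 lower than in control nodes. Total-count scaling, chosen after seeing the data, gave 20 and 19. The main fit gave 10 and 12, library weights 13 and 13, and the fit with no mean-variance trend 9 and 9. The mouse block gave 11 and 11, and TMM scaling and edgeR each gave 10 and 13. With each library left out, the counts were 9 to 10 and 9 to 13. Under quantile scaling the synovium over arthritic node log2 fold changes of Cd3g, Cd4, Cd5, Cd6 and Lcp2 turned to −0.327, −0.163, −0.0852, −0.0930 and −0.419, and under total-count scaling those of Cd3g, Cd4 and Lcp2 to −0.0899, −0.00634 and −0.208. With library weights those of Cd3e and Nfatc1 turned to 0.00806 and 0.122. With each library left out, Cd3e ran from −0.0957 to 0.0891, Nfatc1 from −0.174 to 0.120, and Nfatc2 between arthritic and control nodes from −0.493 to 0.0374. The cause of these changes was not tested. DESeq2 called 1 member (Sla) higher in arthritic than in control nodes, against 0 in limma.

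With the mouse number as a replicate block, 12 members were higher and 11 lower in synovium than in arthritic nodes (the added calls were Cd6, Nfatc2 and Cbl, none was lost), and 0 members were called between nodes. Synovial and control node libraries share only a number, and the block gave 12 higher and 11 lower there, without Skap1 (adjusted p = 0.0525). Members had at least 154 reads in every library. What limits the comparisons most was not tested.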
